A study of Mus musculus with 18 samples.

Results

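Pseudogenes are copies of genes that have lost the ability to make the original product. Many arose when a spliced messenger RNA was copied back into the genome, which leaves a short body with no promoter of its own, and others are duplicates or remnants of whole genes that keep introns and sometimes regulatory sequence. Open chromatin is mostly found at promoters and enhancers. A peak on a pseudogene away from other genes lies in neither the body nor the near surroundings of an annotated coding or long non-coding RNA (lncRNA) gene.

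The regions described are ATAC-seq consensus peaks of mouse cortical neuron cultures that overlap a stand-alone pseudogene. A stand-alone pseudogene is a gene of biotype pseudogene on chromosomes 1 to 19 (RefSeq, GRCm38) whose body lies more than 5 kb from every protein-coding and every lncRNA gene. Of 8797 pseudogenes on these chromosomes, 5187 were stand-alone. Of the 5187, 295 overlapped at least 1 peak and 4892 overlapped none. The 295 carried 448 of the 211682 consensus peaks.

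ATAC-seq uses the Tn5 transposase to cut and tag accessible DNA. The 18 samples were primary neurons from CD1 embryos at E14.5-15. All had been given cytosine arabinoside at 2 µM, which stops cell division, with lentiviral short hairpin RNAs following on day 6 and harvest on day 11, and were read as pairs of 50 bp. The groups were shOpa1 with shAtf4 (5 samples), shOpa1 with shScrambled (5), shControl with shAtf4 (3) and shControl with shScrambled (5). Opa1 encodes a GTPase of the inner mitochondrial membrane, and Atf4 encodes a factor that switches on stress response genes. The study asks how accessibility depends on Atf4 with and without the mitochondrial stress of Opa1 knockdown. The peaks come as a single pooled list with no value per sample or group, so nothing below compares knockdowns, has a mean over cultures or has a p-value. Sequencing depth per sample is unknown. The cultures are labelled as neurons, and all 7 neuronal markers checked had a peak within 1000 bp of a gene end, against 2 of 4 astrocyte, 3 of 4 oligodendrocyte lineage, 1 of 4 microglia and 2 of 3 endothelial markers.

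Stand-alone pseudogenes rarely overlapped a peak. The share was 5.69% (295 of 5187, exact Clopper-Pearson 95% interval 5.07 to 6.35%). Among all pseudogenes on chromosomes 1 to 19 it was 7.15%, and among annotated genes of every type, many of them far longer, it was 56.6%. Of tiles of 1 kb laid end to end over the sequence that is likewise more than 5 kb from protein-coding and lncRNA genes, 7.48% overlapped a peak. The stand-alone pseudogenes had a median body of 935 bp, close to the tile length, and a lower share than the tiles. These intervals cover counting only, and pseudogenes are not replicates of a condition.

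Longer bodies held a peak more often. The share with a peak was 1.94% for bodies up to 500 bp (17 of 876), 3.25% for 501 to 1000 bp (64 of 1971), 4.37% for 1001 to 2000 bp (57 of 1303) and 9.69% for 2001 to 5000 bp (56 of 578). It was 14.7% for 5001 bp to 10 kb (28 of 191), 23.3% for 10 to 50 kb (55 of 236) and 56.2% above that (18 of 32). Tiles with the median length of each class overlapped a peak more often in all 7 classes. Their shares were 4.22, 6.26, 8.79, 14.8, 28.1, 49.6 and 81.6%, from the shortest class to the longest. Each of these lay above the upper exact limit of the pseudogenes of that class.

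**Figure D1:**
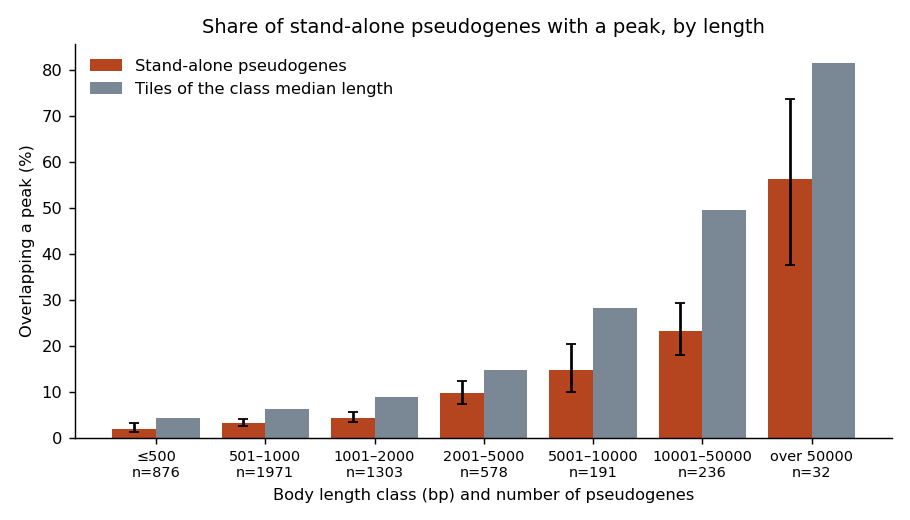
Share overlapping a consensus peak, in percent, by body length in bp. Brown bars are stand-alone pseudogenes, with exact 95% intervals for counting, and grey bars are tiles of the class median length. Tiles lie more than 5 kb from protein-coding and lncRNA genes and can hold other genes, pseudogenes among them. Pseudogenes stand below the tiles in every class, at 1.94% against 4.22% in the shortest and 56.2% against 81.6% in the longest.

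The same difference appeared in bases. Peaks covered 1.24% of the 14.3 Mb of stand-alone pseudogene bodies and 2.61% of the other 1051 Mb that lie more than 5 kb from protein-coding and lncRNA genes. Over chromosomes 1 to 19 as a whole the figure was 4.48%. Peak midpoints lay at 26.3 per Mb in the bodies (376 midpoints, exact Poisson interval 23.7 to 29.1). In the other 1051 Mb they lay at 55.7 per Mb (55.2 to 56.2). Bodies up to 5 kb had 28.0 midpoints per Mb and bodies over 5 kb had 25.3, with overlapping intervals (23.6 to 32.9 and 22.1 to 28.8). Both were below the density of the other 1051 Mb. That sequence still contains genes of other biotypes. It also contains gaps of the assembly, which hold no peaks and lower its own value.

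The low coverage was centred on the bodies. Around the 4728 stand-alone pseudogenes of up to 5 kb, peaks covered between 2.05 and 2.39% of the bases in each 500 bp step from 500 to 5000 bp outside an end. In the 500 bp next to the ends coverage was 1.49%, and inside it was between 1.26 and 1.53% from the ends to the middle. Stand-alone lncRNA genes of up to 5 kb, which are transcribed by annotation, had the opposite shape. Their coverage was 10.03% in the outermost 10% of the body at each end, 8.83% in the 500 bp just outside and between 5.13 and 6.14% farther out. No test of this difference was made.

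**Figure D2:**
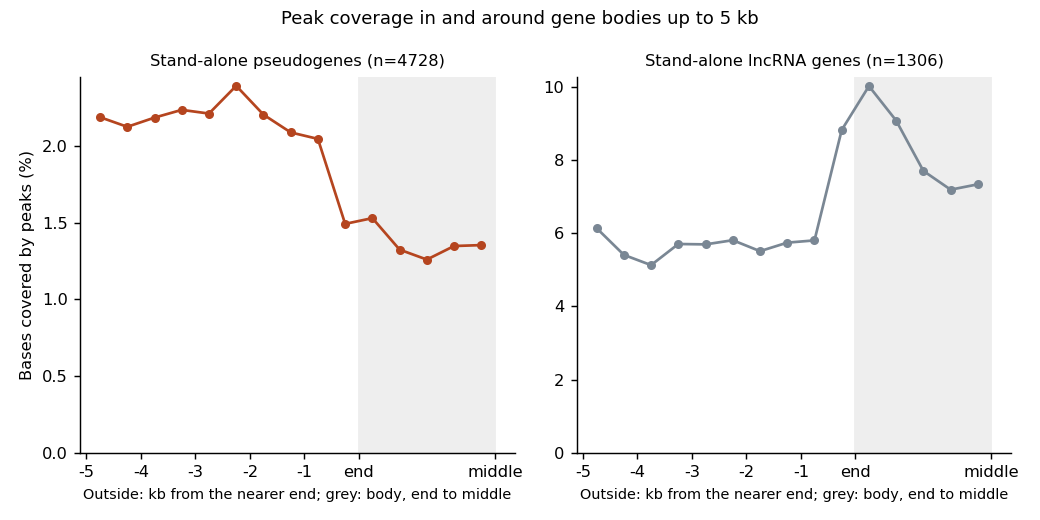
Percent of bases covered by peaks outside gene ends (left of each panel, in kb from the nearer end) and inside bodies from the end to the middle (grey band), for stand-alone pseudogenes (left panel) and stand-alone lncRNA genes (right panel) of up to 5 kb. The vertical scales differ: pseudogenes dip to between 1.26 and 1.53% inside, and lncRNA genes reach 10.03% just inside their ends.

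Stand-alone lncRNA genes had a peak far more often, at 62.6% (2652 of 4234), but their median body was 9012 bp. At like length the gap remained. Of bodies of 501 to 1000 bp, 3.25% of stand-alone pseudogenes and 26.3% of stand-alone lncRNA genes (25 of 95, exact interval 17.8 to 36.4%) had a peak. Of bodies of 2001 to 5000 bp it was 9.69% of the pseudogenes and 43.5% of the lncRNA genes (384 of 883, 40.2 to 46.8%). Pseudogenes that touch or lie within 5 kb of another gene were in between, at 9.25% overall (334 of 3610, 8.33 to 10.2%), 4.66% at 501 to 1000 bp and 17.5% at 2001 to 5000 bp. At 501 to 1000 bp their exact interval, 3.62 to 5.89%, overlapped that of the stand-alone pseudogenes, 2.51 to 4.13%. At 2001 to 5000 bp the intervals were apart, at 13.7 to 21.9% and 7.40 to 12.4%. Among pseudogenes near another gene the share was 9.20% for those that overlapped that gene and 9.37% for those beside it.

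Distance from other genes went with the share of stand-alone pseudogenes that had a peak. It was 7.53% at 5 to 10 kb (70 of 929), 7.67% at 10 to 20 kb (87 of 1135), 5.22% at 20 to 50 kb (71 of 1359), 4.10% at 50 to 200 kb (51 of 1245) and 3.08% beyond 200 kb (16 of 519). The median body length was between 904 and 962 bp in all 5 classes. The first 2 classes did not differ beyond their counting intervals (5.92 to 9.42% and 6.18 to 9.37%). The other sequence more than 5 kb from protein-coding and lncRNA genes was also covered less at greater distance, and more than the bodies in each band. In the band of 5 to 10 kb peaks covered 2.47% of pseudogene bodies and 3.82% of other sequence, and beyond 200 kb they covered 0.696% of bodies and 1.08% of other sequence. Between these ends the bodies were at 1.64, 1.26 and 0.992%, and the other sequence was at 3.63, 3.12 and 2.25%. Other sequence was covered between 1.55 and 2.47 times as much as pseudogene bodies over the 5 bands, so the decline was not of one shape in both, and the difference was not tested.

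**Figure D3:**
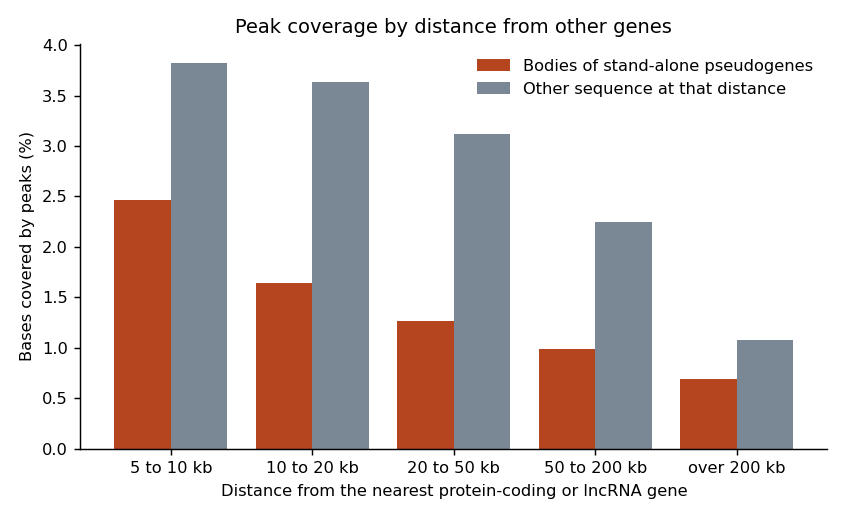
Percent of bases covered by peaks in bodies of stand-alone pseudogenes (brown) and in all other sequence more than 5 kb from protein-coding and lncRNA genes (grey), by distance from the nearest protein-coding or lncRNA gene. Both decline with distance, and the bodies are lower in each band, at 2.47% against 3.82% in the nearest and 0.696% against 1.08% in the farthest.

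Pseudogenes with and without a peak differed in length, position and surroundings. The 295 with a peak had a median body of 2160 bp (quartiles 911 and 9716 bp), against 922 bp (593 and 1568 bp) in the 4892 without. This difference of 1238 bp was 276.5 bp among bodies up to 5 kb, and 2282 bp when a peak counted only with its midpoint inside the body. The distance to the nearest protein-coding or lncRNA gene had a median of 18059 bp (quartiles 10398 and 45864 bp) in those with a peak and 28766 bp (12784 and 77140 bp) in those without. They also had more peaks around them, not counting those on the body, with a median of 7 other peaks within 50 kb (quartiles 3 and 12) in those with a peak and 4 (1 and 8) in those without. The quartile ranges overlapped for all 3 measures, so none separates the groups. The type of the nearest gene was alike, since it was protein-coding for 61.7% of those with a peak and 62.3% of those without.

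The surroundings also differed within length classes, though not in all. The 95% intervals of the median number of other peaks were apart in the 5 classes from 501 bp to 50 kb, and those of the median distance in the classes of 501 to 1000 and 2001 to 5000 bp only. Among bodies of 501 to 1000 bp, the 64 with a peak had a median of 9 other peaks within 50 kb and lay 15252 bp from the nearest gene, against 4 other peaks and 26905 bp in the 1907 without. Among bodies of 10 to 50 kb, the 55 with a peak had a median of 6 other peaks, against 0 in the 181 without, while the median distances were close, at 23983 and 24552 bp. Among bodies up to 500 bp, the 17 with a peak had a median of 7 other peaks and lay 24481 bp from the nearest gene, against 5 other peaks and 26985 bp in the 859 without, and the 95% intervals of these medians overlapped. Among bodies over 50 kb the distance ran the other way, with a median of 84745 bp in the 18 with a peak and 27608 bp in the 14 without. Of the 1056 pseudogenes with no other peak within 50 kb, 20 had a peak on the body (1.89%, exact interval 1.16 to 2.91%). Of the 845 with more than 10 other peaks, 95 did (11.2%, 9.19 to 13.6%), although their median body was shorter, at 806 bp against 1131 bp. Bodies of 10 to 50 kb without a peak had an upper quartile of 3 other peaks, against 12 in those with one.

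**Figure D4:**
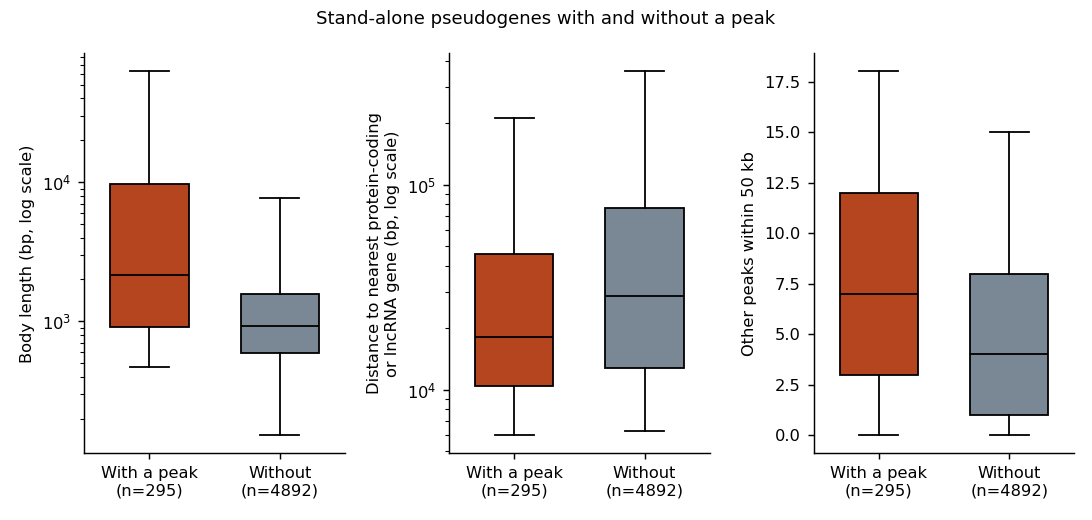
Body length in bp, distance to the nearest protein-coding or lncRNA gene in bp (both on log scales) and number of other peaks within 50 kb, for the 295 stand-alone pseudogenes with a peak (brown) and the 4892 without (grey). Boxes are quartiles with the median, and whiskers are the 5th and 95th percentiles. Medians are 2160 against 922 bp, 18059 against 28766 bp and 7 against 4 peaks.

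The peaks themselves were of ordinary width. The 448 had a median of 432.5 bp (quartiles 302 and 646 bp, range 103 to 1490 bp), against 411 bp (306 and 567 bp) for 58469 other peaks more than 5 kb from protein-coding and lncRNA genes and 425 bp for all other peaks of chromosomes 1 to 19. Peaks on bodies of up to 5 kb were wider, with a median of 464 bp for 209 peaks, than the 240 on longer bodies, with a median of 406.5 bp. Any shared base counted as overlap, a rule by which a wide peak meets a short body more readily. With the peak midpoint inside the body, the median width over all bodies was 410 bp. The part of this rule in the difference was not tested. None of the 448 reached 2000 bp. A score below the ceiling of the deposited list was found for 8, 1.79% of them against 1.70% of the 58469 other peaks. Most members carried a single peak (228 of 295), 37 carried 2, and 30 carried between 3 and 11. Of 449 overlaps, 301 had the whole peak inside the body and 148 ran past an end, and in 10 the peak covered the whole pseudogene. The smallest overlap was 8 bp, and 12 were of at most 50 bp.

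Shares by chromosome ranged from 3.18% on chromosome 7 (20 of 629) to 8.93% on chromosome 19 (10 of 112), and their exact intervals overlapped (1.95 to 4.87% and 4.36 to 15.8%). The interval of chromosome 7 did not overlap that of chromosome 13, where 23 of 299 had a peak (7.69%, 4.94 to 11.3%). This pair was picked out of all pairs of chromosomes, with no allowance for their number. The peak density of each whole chromosome was not set beside its share, so the differences are not shown to be particular to pseudogenes. Members with a peak were scattered. In 9 places 2 of them lay within 50 kb of each other, and a single peak was shared, by Gm6831 and Gm18475 on chromosome 8.

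Parent genes were grouped into 18 families by symbol or synonym. A copy with a Gm or LOC symbol and no synonym of a family counts as having no named parent. That class, used for comparison below, can therefore hold unrecognised copies of any family. Cytosolic ribosomal protein genes, which have many retrocopies, had 156 stand-alone pseudogenes recognised by name. Of these, 1 had a peak (0.641%, exact interval 0.0162 to 3.52%). It was Rps7-ps1 (chromosome 8, 69540903 to 69541414), with a peak of 227 bp that covered 147 bp of its 512 bp. None of the 104 pseudogenes with an Rpl symbol had a peak, which allows a share of up to 2.88%. The ribosomal protein pseudogenes were short, with a median of 564.5 bp, yet lay among more other peaks than most, with a median of 7 within 50 kb. At 501 to 1000 bp, 1 of 93 had a peak, against 3.43% (50 of 1458) of pseudogenes of that length with no named parent. The exact interval of the ribosomal protein share at that length, 0.0272 to 5.85%, holds the other value. How reads shared between such copies and their parents were placed is unknown here, so peaks on copies, and their lack, are uncertain and the part of this in the shares was not tested.

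Chemosensory receptor pseudogenes made up the family with the most members. These are relics of the olfactory, vomeronasal and taste receptor genes, which sit in large arrays that are silent in most neurons. Of 460, 8 had a peak (1.74%, exact interval 0.754 to 3.40%). The 8 were 6 of the 232 olfactory and 2 of the 115 Vmn1r pseudogenes, and none of the 100 Vmn2r pseudogenes had one, which allows up to 3%. The widest peak, of 610 bp, lay on Olfr534-ps1 (140478743 to 140479359 of chromosome 7) and covered 82.7% of its body. At 501 to 1000 bp the share of the family was 2.73% (8 of 293, exact interval 1.19 to 5.31%), an interval that holds the 3.43% of pseudogenes of that length with no named parent. Olfr443-ps1 and Olfr440-ps1, 2 neighbours on chromosome 6 named after their values were seen, had peaks of 441 and 366 bp. The family's surroundings were poor in peaks, with a median of 1 other peak within 50 kb, although its members lay closer to other genes than most, at a median of 15044.5 bp.

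Copies of other housekeeping genes recognised by name were too few to set their shares apart from the 5.69% of all stand-alone pseudogenes. Copies without such a name are not in these counts. None of 29 heat shock and chaperonin pseudogenes, 14 of glycolytic enzymes, 11 of translation factors, 8 of ribosomal RNA, 6 of the ubiquitin and proteasome system and 5 of high mobility group proteins had one. For the first 3 of these a count of 0 allows shares of up to 10.3, 21.4 and 27.3%. The smaller families with no peak were histones (1 member), tubulin, actin and keratin (2) and small nuclear and 7S RNA (3). Of 34 cyclophilin pseudogenes 1 had a peak, Gm5558, which has a synonym of Ppia, the gene of a prolyl isomerase. Its peak was 1133 bp wide and touched the last 105 bp of the body (chromosome 5, peak 91807012 to 91808144). Of 9 oxidative phosphorylation pseudogenes 1 had peaks, Uqcrh-ps1, a copy of a complex III subunit gene, with 2 peaks of 266 and 217 bp that together covered 66.3% of its 517 bp.

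Several smaller families had a member with a peak. Of 22 cytochrome P450 pseudogenes, with a median body of 12910 bp, 2 had one, and the wider was 721 bp on Cyp2d39-ps (chromosome 15, 82716004 to 82719416). Of 9 zinc finger pseudogenes, Zfp520-ps (chromosome 16, 17815176 to 17815863) was overlapped by a peak of 1099 bp across 83.9% of its body. Of 4 from the splicing and hnRNP family, Hnrnpa1l2-ps had a peak of 877 bp that overlapped it by 33 bp. Of 3 serpin pseudogenes, Serpina3e-ps had a peak of 418 bp inside its body, and of 2 from the major histocompatibility complex, H2-Pb had a peak of 159 bp. In families this small a single member sets the share, and their exact intervals all reach 29.2% or more.

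**Figure D5:**
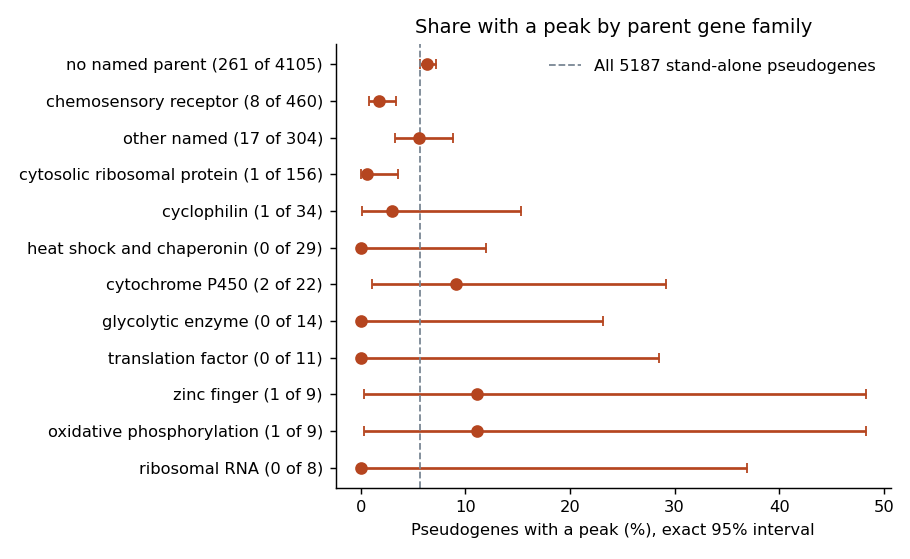
Percent of stand-alone pseudogenes with a peak (points) and exact 95% intervals for counting (bars), by family of the parent gene. Families shown have at least 8 members and were recognised by symbol or synonym only. The dashed line is the share over all 5187, 5.69%. Chemosensory receptors (1.74%) and cytosolic ribosomal proteins (0.641%) have intervals wholly below it. For bodies of 501 to 1000 bp alone, not plotted, their intervals were 1.19 to 5.31% and 0.0272 to 5.85%. Both hold the 3.43% of pseudogenes of that length with no named parent.

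The remaining pseudogenes had a share near the overall value, at 5.59% for 304 with another named parent and 6.36% for 4105 with no parent in their names. For 332 the symbol names a protein-coding parent that is in the gene table. Where that parent had a peak within 1000 bp of a gene end, 11 of 291 pseudogenes had a peak (3.78%, exact interval 1.90 to 6.66%). Where it had none, 0 of 41 did, which allows up to 7.32%, so a difference between the sets was not detectable at these numbers.

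The widest peaks on stand-alone pseudogenes were 1490 bp at Gm10222 and Gm13726 and 1470 bp at Gm21321. Gm10222 (chromosome 1, 24612404 to 24612700) is 297 bp long and lay wholly inside its peak (24612337 to 24613826). The neighbouring Gm10925 (24613971 to 24614651), looked up after the values were seen, had no peak and carries the synonym mt-Atp6, the mitochondrial gene of an ATP synthase subunit. Which locus the reads under this peak came from was not tested. Gm13726 (chromosome 2, 77962220 to 77963083) was 83.1% covered by a peak at 77962366 to 77963855. It had 38 other peaks within 50 kb, more than any other member with a peak, and 3 of those, of 655, 215 and 1730 bp, followed each other just before it. Gm21321 (chromosome 10, 7390164 to 7392184) carried 2 peaks, of 1343 and 1470 bp, which covered 80.4% of its body, but had 1 other peak within 50 kb.

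Next by width were 9 further members. Peaks inside long bodies were found in Gm4701 on chromosome 17 (1312 bp), Gm20590 on chromosome 13 (1273 bp) and Gm38433 on chromosome 5 (1177 bp). Peaks across the end of a short body were found at Gm13142 on chromosome 4 (1251 bp), Gm18863 on chromosome 9 (1207 bp), Gm18224 on chromosome 6 (1190 bp), Gm49261 on chromosome 14 (1170 bp) and Gm12947 on chromosome 4 (1135 bp). Mlnr-ps (chromosome 14, 72531021 to 72532655), the mouse relic of the motilin receptor gene, was covered for 42.1% of its body by a peak of 1140 bp. It lay 5292 bp from the nearest gene, Fndc3a, only just beyond the distance limit.

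The members with the most peaks were long. Gm13377 (chromosome 2, 21044809 to 21139682), with the synonym Prtfdc1, a relative of the purine salvage enzyme gene Hprt that is a working gene in human, carried 11 peaks of 249 to 859 bp over 94874 bp. Gm7947 on chromosome 17 carried 10 over 79161 bp, Gm12026 on chromosome 11 carried 9 over 124561 bp, Gm14371 on chromosome 2 carried 8 over 62439 bp and Gm4701 carried 7 over 40604 bp. Peaks covered between 3.48 and 9.02% of these 5 bodies. Other bodies as long had none. Gm46188 on chromosome 10 (122595 bp), Vmn2r-ps98 on chromosome 13 (77739 bp), Gm51539 on chromosome 8 (77331 bp), Gm9683 on chromosome 3 (66618 bp) and Gm18360 on chromosome 7 (65535 bp) are the 5 longest without a peak. They had between 0 and 4 other peaks within 50 kb, against between 6 and 19 for the 5 with the most.

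At the far end of the distance scale, Gm13813 on chromosome 2 lay 1004614 bp from any protein-coding or lncRNA gene and held a peak of 364 bp. Crry-ps on chromosome 8, a copy related to a complement regulator gene, lay 962793 bp away and had a peak of 233 bp with no other within 50 kb. Gm18728 and Gm3116, both on chromosome 1, lay 903623 and 868891 bp away and carried 6 and 3 peaks in bodies of 429487 and 199362 bp. Gm18232 on chromosome 3, 638870 bp away, had a peak of 382 bp. Each of these 5 had at most 4 other peaks within 50 kb. At the near end, Gm8748, Gm48176 and Gm17982 lay 5012, 5014 and 5183 bp from a gene and had peaks of 464, 426 and 723 bp. Short of the limit and therefore left out were Gm6185 and Gm7368, both at 4938 bp, and Gm1826 at 4769 bp, with peaks of up to 1255, 322 and 239 bp. The widest peak of the whole list, of 4410 bp, lies on the pseudogene Rn18s-rs5, which overlaps the lncRNA gene AY036118 and is therefore no member.

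The 10 pseudogenes that lay wholly inside a peak were named after their values were seen. Besides Gm10222 they were Gm9111, Gm22152, LOC115488036, Gm23340, Gm18218, Gm25009, Gm10060, Gm20583 and Gm20584, with bodies of 101 to 783 bp. Gm10060, Gm20583 and Gm20584 were each 105 bp long and lay at 19.8, 20.3 and 20.4 Mb of chromosome 8, inside peaks of 874, 1056 and 963 bp. They were the only stand-alone pseudogenes of that length on the chromosome, and the nearest protein-coding or lncRNA gene was between 31142 and 61389 bp away. How alike the 3 are in sequence was not examined, and copies that are alike would share reads, so their peaks are uncertain.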

How the data were processed

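The deposited file is the authors' single consensus list of peaks (mm10) with a score per peak, at its ceiling of 1000 for most. Peak names carry MSPC, which combines calls across replicates, per the file itself, while MACS2, deepTools and MultiQC appear without versions in the submitters' processing notes. Not given in the sources used here are the aligner, the calling thresholds and the treatment of reads that map to several places. Many pseudogenes resemble their parents, and what that treatment did to their peaks was not tested. Peaks did not overlap each other.

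Genes were taken from RefSeq's annotation of GRCm38 (49997 entries, with no strand or exons). Left out were 348 scaffold entries, whose positions restart within a chromosome, and 21 without a position. Distances are bases between bodies, and any shared base counts as overlap. Tiles fill the sequence more than 5 kb from protein-coding and lncRNA genes, between the outermost peak or gene of each chromosome. No test was run, since the list has no samples as replicates. Shares have exact Clopper-Pearson 95% intervals, densities have exact Poisson ones and a count of 0 allows 3 counts. All cover counting only. Overlap, distance and coverage were tested on simulated or recounted data. Members, families and rules were chosen with earlier results of these data known. Named were the 12 members with the widest peak, the 5 with the most, the widest in each family, the 5 longest without, 3 on each side of the limit and the 5 farthest out. The work used pandas 2.3.3 and numpy 2.4.6 for overlaps, scipy 1.17.1 for intervals and matplotlib 3.10.9 for plots, under Python 3.11.15.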

Additional observations from a re-analysis of the deposited data

Results flagged for a closer look

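Peaks also lay on stand-alone pseudogenes outside the set described. A set was flagged where more than 3 pseudogenes had a peak, a fixed floor that is not a test. This held for 3 sets, with no control to set them against. It did not hold for chromosome Y, where 1 of 81 had a peak. On chromosome X, 17 of 724 had a peak (2.35%, exact interval 1.37 to 3.73%). That was a lower share than on chromosomes 1 to 19, whose interval does not overlap it. Chromosomes 1 to 19 hold 208005 of the 211682 consensus peaks. The peak density of chromosome X as a whole was not set beside its share, so the lower share is not shown to be particular to pseudogenes. Of the transcribed pseudogene biotype, 50 of 208 had a peak (24.0%, 18.4 to 30.4%), with a median body of 3408 bp. Of the members of 2001 to 5000 bp, 9.69% had a peak, and of tiles for that class 14.8%. Of the biotypes of immune receptor segment and other non-coding pseudogenes, 15 of 171 had a peak (8.77%, 4.99 to 14.1%), with a median body of 301 bp. Of the members of up to 500 bp, 1.94% had a peak, and of tiles for that class 4.22%. The sets were not matched for length, and the part of length in their shares was not tested.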

How the results depend on the processing

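Under 10 other settings chosen at the outset and 2 added after seeing the data, the median distance to the nearest gene stayed lower in pseudogenes with a peak (differences of -14183 to -7798 bp), and median length and the number of other peaks stayed higher. With members more than 20 kb from genes the share with a peak was 4.42% and the peaks numbered 213. With 50 kb they were 3.80% and 101, and the difference in other peaks was 1. With the peak midpoint inside the body the share was 4.57% and the length difference 2282 bp. Peaks of at least 500 bp gave 2.83%, 179 peaks, a median width of 697 bp and a difference in other peaks of 1. Only such peaks were then counted around the bodies as well. The width and the number of other peaks are therefore not the same measures as in the main setting. By family, peaks of at least 500 bp gave 0.435% for chemosensory receptors and 3.19% with no named parent. They gave 0% for ribosomal proteins, oxidative phosphorylation, histocompatibility and serpins. With transcribed pseudogenes added the share was 6.39%. With bodies up to 5 kb alone, an added setting, it was 4.10%, with 209 peaks of median width 464 bp and a length difference of 276.5 bp. The 2 kb limit, distance from every biotype, chromosome X, merging within 1 kb, ceiling scores and leaving out chemosensory receptors moved no value beyond its interval and the number of peaks by less than 1.5 times. No paired analysis was possible because a pooled list carries nothing per sample, and for the same reason no sample could be left out. Depth is unknown, so a body without a peak is not shown to be closed.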

Other observations

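Of the 295 stand-alone pseudogenes with a peak, 3 have symbols with neither a Gm or LOC number nor a pseudogene suffix. They are Naip3, of a family of innate immune sensors, with a peak of 694 bp, H2-Pb, and Calhm3, with a peak of 1003 bp, whose relatives form ion channels. Dnmt3b-ps1, which has the synonym Dnmt3c and is related to the DNA methyltransferase genes, carried 2 peaks, of which the wider was 1067 bp. Best4-ps, a relic of a bestrophin channel gene, carried 3 over 3029 bp. These members were chosen after their values were seen. Their biotype is that of the annotation, and whether any of them still makes a working product was not examined. Exactly 65535 bp was the annotated length of 3 stand-alone pseudogenes, of which 1 had a peak.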
